A study of Mus musculus with 2 samples.

Results

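Claudins are membrane-spanning proteins that form the strands of the tight junction and set what passes between epithelial cells. Some, such as those encoded by Cldn1, Cldn3, Cldn4, Cldn5 and Cldn8, tighten the barrier, whereas those encoded by Cldn2 and Cldn10 form pores for small ions. In the uterus, the junctions of the luminal epithelium separate the lumen from the stroma while the epithelium becomes ready for the blastocyst. The genes described here are 10 members of the family, Cldn1 to Cldn8, Cldn10 and Cldn23. They were taken as the 17 probe sets, of 45101 on the array, that the platform annotation assigns to exactly 1 of these genes. A probe set is a group of short oligonucleotides read together as 1 signal.

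Gene expression was measured on Affymetrix arrays in epithelial cells that had been freed with trypsin from uteri of pregnant C57BL/6 mice (day 4, mated to fertile males). The control genotype was Msx1Msx2 Floxed Control and the other was Msx1Msx2-null, with 1 array each. In the null, the floxed homeobox genes Msx1 and Msx2 were ablated by crossing to PRcre mice. The PRcre allele drives Cre recombinase from the progesterone receptor gene, which is active in epithelium, stroma and muscle of the uterus, so the loss is not limited to the cells assayed. The labels give no age, do not say whether RNA of several mice was pooled, and conflict on the material: 1 text gives epithelial cells of 5 mice per genotype and another gives stromal cells of 4. With a single array per genotype, differences have no replicate spread and no p-values are given. In bulk RNA such as this, fewer cells of a type and less RNA per cell cannot be told apart.

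The targeted genes were lower on the null array, Msx1 82.1-fold by the brighter of 2 probe sets and Msx2 2.69-fold by the only readable one; which exons were deleted is not given in the sources used here. All 11 epithelium markers with a probe set, among them the keratins Krt8 and Krt18, E-cadherin and Epcam, lay above the signal floor on both arrays. Their summed signal was 34050 in the control and 34470 in the null, with a median log2 difference of -0.10. The floor, 21.1, is the 50th percentile of all non-control signals, below which a value was treated as unread. Markers of other cell types were also read, some on 1 array alone. Over markers read on at least 1 array, median log2 differences were 0.54 for stroma, 1.12 for smooth muscle and 0.71 for macrophages. They were 0.34 for glands, 0.32 for lymphocytes and plasma cells, 0.45 for red blood cells and -0.60 for mesothelium. Read on both arrays were 4 of 7 measured markers of smooth muscle, 5 of 7 of glands and 6 of 9 of lymphocytes and plasma cells. The medians of smooth muscle and of lymphocytes and plasma cells are bounds, from Myh11 and Cd79b, each below the floor in the control. The median of lymphocytes and plasma cells hides a wide spread. Jchain of that list stood at 3.77 (71.5 and 978), near the size of the Cldn1 difference given below. Of the 9 measured markers 2 passed 2-fold upwards, Jchain and, as a bound of 1.07, Cd3g, and none downwards. Differences above 0 were seen in 8, and Gzma stood at -0.40. Summed signals of control and null were 10120 and 12950 for the 12 stroma markers, 336 and 1009 for the 8 of smooth muscle, and 5372 and 5954 for the 9 of macrophages. The part of these cells in the results below was not tested.

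Sequence upstream of the start is shown for the pair of claudins that passed 2-fold, Cldn1 and Cldn2, and for Cldn3 and Cldn4, neighbouring genes that did not. Each line holds the 250 bases before the RefSeq transcription start (GRCm38.p6), read 5′ to 3′ on the gene's strand. Capitals mark matches to 4 motifs searched on both strands. The site of Msx homeodomain proteins was searched as TAATTG. The E-box bound by Snail family repressors was searched as CAGGTG. The GC box, which binds Sp1-like activators, was searched as GGGCGG. The TATA box near the start of many genes was searched as TATAAA.
Cldn1 (chr16:26371840-26372089, minus strand): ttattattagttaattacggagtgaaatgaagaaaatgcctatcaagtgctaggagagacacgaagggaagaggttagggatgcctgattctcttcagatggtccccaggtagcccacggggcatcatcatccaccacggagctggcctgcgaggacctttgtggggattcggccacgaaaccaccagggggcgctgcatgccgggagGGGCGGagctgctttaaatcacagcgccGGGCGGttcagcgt
Cldn2 (chrX:139800558-139800807, plus strand): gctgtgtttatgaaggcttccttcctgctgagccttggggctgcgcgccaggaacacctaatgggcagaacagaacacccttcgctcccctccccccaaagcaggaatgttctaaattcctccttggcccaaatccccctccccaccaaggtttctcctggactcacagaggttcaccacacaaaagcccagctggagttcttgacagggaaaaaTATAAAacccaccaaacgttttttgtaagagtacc
Cldn3 (chr5:134985964-134986213, plus strand): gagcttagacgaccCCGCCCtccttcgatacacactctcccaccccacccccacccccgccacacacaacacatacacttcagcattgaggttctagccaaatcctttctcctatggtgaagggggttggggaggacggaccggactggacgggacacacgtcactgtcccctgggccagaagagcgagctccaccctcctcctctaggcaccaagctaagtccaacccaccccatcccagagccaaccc
Cldn4 (chr5:134946935-134947184, minus strand): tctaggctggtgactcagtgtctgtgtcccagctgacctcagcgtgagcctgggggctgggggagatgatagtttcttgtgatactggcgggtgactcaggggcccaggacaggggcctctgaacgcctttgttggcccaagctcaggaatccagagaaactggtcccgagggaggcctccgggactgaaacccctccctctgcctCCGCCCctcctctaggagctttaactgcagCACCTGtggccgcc

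The Cldn1 window held 2 GC boxes, starting 42 and 14 bases before the start, and no other match. The Cldn2 window held a TATA box starting 35 bases before the start. That of Cldn4 held a GC box and, 14 bases before the start, an E-box of the Snail type, while that of Cldn3 held a GC box alone. Windows were found for 8 of the 10 genes, 10 windows in all; Cldn8 and Cldn23 had none in the table used. The Msx motif was in none of the 10 windows and in 7.17% of 32851 windows of this length over all genes. The Snail E-box was in windows of Cldn4, Cldn6 and Cldn7 (17.2% of all windows), the GC box in those of 7 claudins (32.7%) and the TATA box in that of Cldn2 (12.4%). The motifs were chosen after the expression values were known, and a match describes letters in this window, not binding.

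Of the 17 claudin probe sets, 12 could be read on both arrays, that is, were not below the floor, 1 only on that of the null and 4 on neither. By gene, 8 claudins were read on both, Cldn2 only in the null and Cldn6 on neither. The plot of claudin probe sets shows each pair of signals. For each gene the probe set with the highest mean signal was used, and a difference was counted when it reached 2-fold. Among 9 measured claudins 2, Cldn1 and Cldn2, passed 2-fold upwards in the null (22.2%) and none passed it downwards. Over all 11662 measured genes 7.73% were at least 2-fold higher and 4.75% lower. By probe set 3 of 13 were higher and none lower, against 6.25% and 6.49% of 20942 named probe sets. With so few members these shares describe the family and are not a test. The median log2 difference of the 9 claudins was 0.34, against 0.08 for all measured genes. With scaling to the hybridization spike-ins both medians fell, to 0.05 for the claudins and -0.20 for all measured genes.

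**Figure D1:**
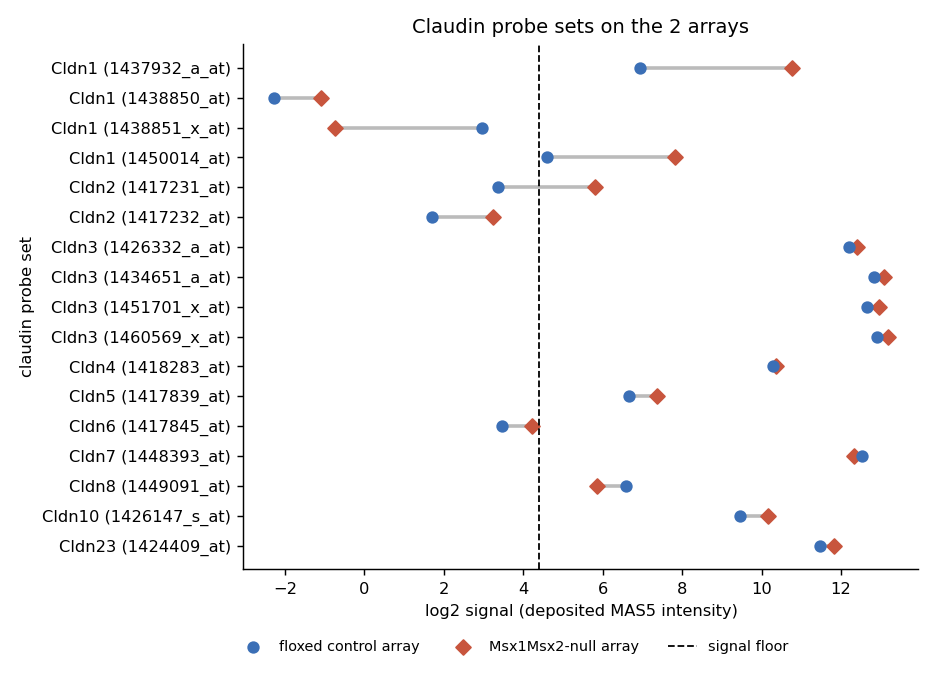
Log2 signal of each of the 17 claudin probe sets on the floxed control array (blue circles) and the Msx1Msx2-null array (red diamonds), with the signal floor of 21.1 as a dashed line. The widest gaps above the floor belong to 2 Cldn1 probe sets, whereas the 4 Cldn3 probe sets, Cldn4 and Cldn7 sit nearly together.

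Cldn1 encodes claudin-1, a sealing claudin that is needed for the water barrier of the skin. Its probe set 1437932_a_at read 122 in the control against 1734 in the null, 14.3-fold higher (log2 difference 3.83). A second probe set, 1450014_at, read 24.0 and 226, 9.44-fold higher (3.24), from a control signal close to the floor. The null signal was therefore the higher at both readable probe sets, which differed from each other by less than either differed from 0. The remaining probe sets were below the floor on both arrays, 1438850_at at 0.207 and 0.471 and 1438851_x_at at 7.81 and 0.602, so neither gives a fold. Of the 10529 genes read on both arrays, 0.0855% differed upwards by as much as Cldn1 or more. Among 1882 genes with a mean log2 signal within 0.5 of that of Cldn1, 0.213% differed by that size in either direction. Measurement error could be gauged only from how far probe sets of 1 gene disagree, with a pooled standard deviation of 0.38 (log2) over 4645 genes, which leaves out any spread between animals.

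Because each array is scaled as a whole, ratios of claudins within an array do not depend on that scaling. Relative to Cldn3, Cldn1 was 11.8-fold higher in the null, relative to Cldn4 13.4-fold, relative to Cldn7 16.3-fold and relative to Cldn23 11.3-fold. Relative to the median of the epithelium markers it was 15.3-fold higher. The claudins thus changed unequally on this pair of arrays. Scaling by 1 factor per array moves all log2 differences alike, so these ratios are not a test of the scaling. Cldn3, Cldn4, Cldn7 and Cldn23 were taken for these ratios after their values were seen.

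Cldn3 and Cldn4, adjacent genes on chromosome 5, encode barrier claudins that also serve as receptors for a Clostridium perfringens toxin. The 4 Cldn3 probe sets read 4687, 6473, 7306 and 7662 in the control and 5420, 7909, 8730 and 9257 in the null. Every one was slightly higher in the null, with log2 differences between 0.21 and 0.29 and a standard deviation of 0.03 among them; probe sets of 1 gene may share target sequence. Cldn4 read 1243 in the control against 1320 in the null, 1.06-fold higher (0.09). With the arrays set to the spike-in controls the direction turned for both, to -0.02 for Cldn3 and -0.20 for Cldn4. Among genes read on both arrays, 33.9% stood at or above the difference of Cldn3 and 49.1% at or above that of Cldn4.

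Cldn7 encodes a claudin found along the lateral membrane as well as at the junction, where it binds Epcam. Its signal was 5889 in the control against 5161 in the null, 1.14-fold lower (-0.19), and Epcam itself stood at -0.06 (5201 and 5000). Cldn23, a less studied member, read 2857 and 3607, 1.26-fold higher (0.34). Cldn3, Cldn4, Cldn7 and Cldn23 together covered log2 differences from -0.19 to 0.34, inside the range of the epithelium markers, -0.75 (Prom1) to 0.55 (Krt19). Each of these 4 differences was smaller than the standard deviation of 0.38 between probe sets of a gene. These 4 were grouped after their values were seen.

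**Figure D2:**
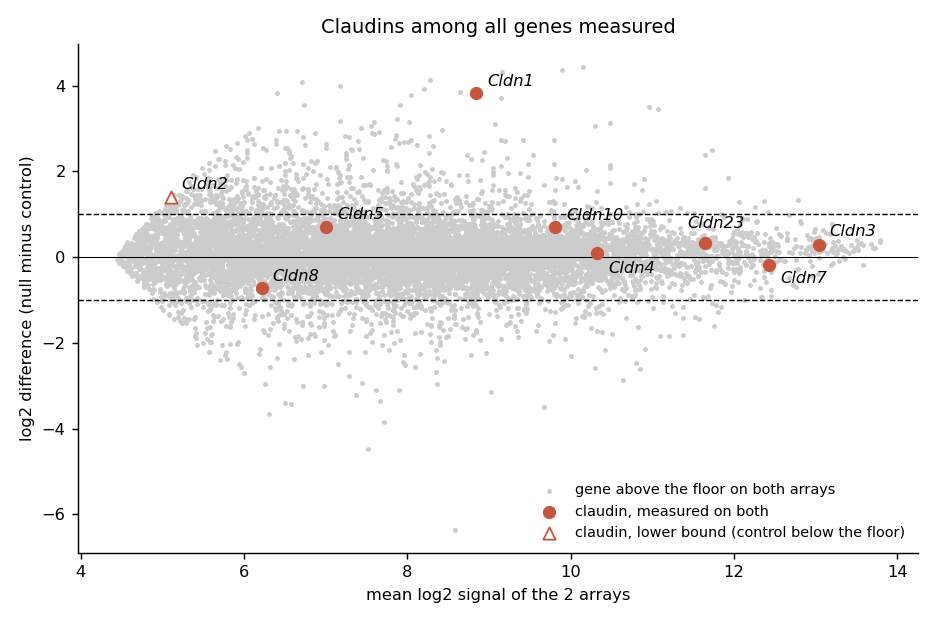
Log2 difference (null minus control) against mean log2 signal for the 10529 genes read on both arrays (grey), with the claudins of the set labelled; the open triangle is Cldn2, whose difference is a lower bound, and dashed lines mark 2-fold. Cldn1 lies at 3.83, at the upper edge of the genes, and the other 7 read on both arrays lie between -0.73 and 0.71.

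Cldn8, which in kidney tubules pairs with claudin-4 in a chloride pathway, was the lowest in the null relative to the control among the 9 measured claudins of the set; Cldn15 and Cldn22, outside it, stood lower still and are given further on. Its signal was 95.9 in the control against 57.8 in the null, 1.66-fold lower (-0.73), which did not reach 2-fold. Differences of that size or more in either direction were seen in 30.6% of the 1578 genes of like signal, so the value is common at this brightness. With spike-in scaling it was -1.02, just past 2-fold, and with the floor at the 67th percentile a bound of -0.40. Relative to Cldn3 on the same array Cldn8 was 2.005-fold lower in the null, relative to Cldn4 1.76-fold, to Cldn7 1.45-fold and to Cldn23 2.095-fold.

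Cldn5 encodes the main claudin of endothelium, although epithelia also make it. It read 100.4 in the control against 164 in the null, 1.64-fold higher (0.71), short of 2-fold. Of the 1893 genes of like signal 23.8% differed by that size or more. Of 11 measured endothelium markers 1, Emcn, was at least 2-fold higher (9.09%) and none lower, against 7.73% and 4.75% of all measured genes. Differences above 0 were seen in 9 of 11, against 6651 of all 11662 measured genes. The endothelium median was 0.16 (-0.10 with spike-in scaling). The markers with the largest differences were Eng, a TGF-beta co-receptor of endothelium, at 0.82, the VEGF receptor gene Kdr at 0.86, Plvap of fenestrated vessels at 0.81 and Emcn, encoding endomucin, at 1.03. Cdh5, the endothelial cadherin, stood at 0.02 (62.2 and 63.1) and Pecam1 at 0.21 (22.4 and 25.9), near the floor, while Erg was below the floor on both arrays; these 3 were chosen after their values were seen. The summed signal of all 12 markers with a probe set was 10150 and 8006, most of it from Sox17 (9592 and 7260), which uterine epithelium also makes. The part of endothelial cells in the Cldn5 value was not tested.

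Of Cldn2 and Cldn10, which encode pores, Cldn2 passed 2-fold upwards and Cldn10 did not. Cldn2 encodes the pore for sodium ions and water of leaky epithelia such as the proximal kidney tubule. Its probe set 1417231_at read 10.4 in the control, below the floor, and 56.2 in the null, so it was at least 2.66-fold higher (bound 1.41). The second Cldn2 probe set was below the floor on both arrays, at 3.25 and 9.45, and gives no fold. With the floor at the 33rd percentile the control signal counted as read and the log2 difference was 2.44; with the floor at the 67th percentile Cldn2 was below it on both arrays and passed no threshold.

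Cldn10 encodes pores for cations or anions, depending on which first exon is used. Its 1 probe set, 1426147_s_at, read 703 in the control against 1147 in the null, 1.63-fold higher (0.71), short of 2-fold. The suffix of that probe set marks possible shared sequence, so the isoforms cannot be told apart. Of the 1304 genes of like signal 16.3% differed by that size or more. The gland markers Cxcl15 and Foxa2, a secreted chemokine and a transcription factor of gland epithelium, were 4.60-fold and 2.40-fold higher on the null array, and Sox9, a transcription factor also made in glands, 2.24-fold lower. Spink1, also on the gland list, read 141 in the control and 13.0, below the floor, in the null, at least 6.69-fold lower. Lif and Fxyd4 were 1.265-fold and 1.17-fold higher. Prss29 read 13.05 in the control, below the floor, and 42.2 in the null, at least 1.999-fold higher, a bound just short of 2-fold. Of 7 measured gland markers 2 were at least 2-fold higher and 2 lower, against 7.73% and 4.75% of all measured genes. The part of gland cells in the Cldn10 value was not tested. Cldn6, a claudin of embryonic epithelia, read 11.1 and 18.5, below the floor on both arrays, and has no fold.

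**Figure D3:**
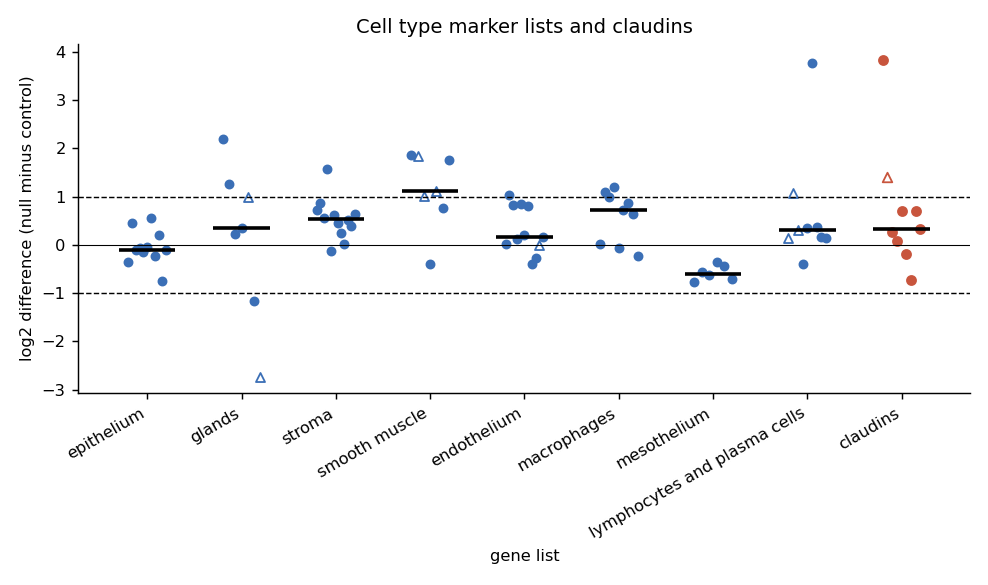
Log2 difference (null minus control) of each measured gene of 8 cell type marker lists (blue) and of the 9 measured claudins (red); open triangles are bounds against the floor, black bars are list medians and dashed lines mark 2-fold. The medians run from -0.60 for mesothelium to 1.12, itself a bound, for smooth muscle, and Cldn1 at 3.83 stands apart from the other claudins.

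Other members of the family gave few readable values. Of 19 further names (claudins and claudin domain genes), 13 had a probe set and 4 were measured. None of the 4 reached 2-fold in either direction, against 12.5% of all measured genes. Cldn15, another ion pore, read 124 in the control against 69.6 in the null, 1.78-fold lower (-0.83). Cldn22 read 55.2 and 30.1, 1.83-fold lower (-0.87), and Cldn12 read 403 and 576, 1.43-fold higher (0.52). Cldnd1, a claudin domain gene, stood at -0.18. With spike-in scaling Cldn15 and Cldn22 passed 2-fold, at -1.12 and -1.16. With that scaling 1044 of 11658 measured genes were at least 2-fold lower.

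Partners of the claudins in the tight junction differed less than Cldn1, and their median was below 0 in every setting tried. The 33 measured genes encode junction membrane proteins, scaffolds, polarity proteins, and proteases and kinases that act on claudins. By the brightest probe set of each gene, none was at least 2-fold higher and 2 were lower (6.06%). Over all measured genes 7.73% were at least 2-fold higher and 4.75% lower, and with so few members these shares are not a test. The median log2 difference of the partners was -0.12, with 23 of 33 values below 0. That of the epithelium markers was near it, at -0.10, with 8 of 11 below 0. Of all 11662 measured genes, 5011 were below 0 and 6651 above it. Over the scalings tried the partner median ran from -0.41 with the spike-in controls to -0.03 with the epithelium markers centred. Wnk4, a kinase that phosphorylates claudins and alters chloride passage between cells, read 812 in the control against 325 in the null, 2.50-fold lower (-1.32). Cgnl1, which encodes paracingulin, a scaffold of junctions, read 837 and 354, 2.37-fold lower (-1.24). Its other probe sets were below the floor in the null, with bounds from -1.25 to -0.36, and with the median over its probe sets Cgnl1 stood at -0.83.

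Among partners short of 2-fold, Ildr1, of the angulin family at tricellular junctions, read 292 and 182 (-0.68). Ildr2, of the same family, stood at 0.81 by its brightest probe set and at -0.23 by the other. Ocln, encoding occludin, and Tjp1, encoding the scaffold ZO-1, both chosen after their values were seen, stood at -0.10 (970 and 903) and -0.57 (1841 and 1244). Both values were smaller in size than 1, the 2-fold limit. Cxadr and Patj, named after their values were seen, stood at -0.61 and -0.31 by their brightest probe sets. Other probe sets read on both arrays disagreed. Those of Cxadr stood at -0.57 (85.2 and 57.4) and 1.15 (37.5 and 83.0). Those of Patj stood at -1.92 (134 and 35.2), -0.24 and 0.24.

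Transcription regulators of epithelial junction genes were split. Of 16 measured, 3 (18.8%) were at least 2-fold higher, Snai2, Elf5 and Twist2, and 2 (12.5%) were lower, Gata6 and Esrp2. Over all measured genes these shares were 7.73% and 4.75%, and with so few members the counts are not a test. The median of the regulators was 0.13 (-0.07 with spike-in scaling). Klf5, named after its values were seen, stood at -0.29 by its brightest probe set and at -1.10 (514 and 239) by another. With probe sets of shared sequence left out, 3 of 18 measured regulators were at least 2-fold lower and 2 higher. Over all genes 610 of 10869 were then lower and 869 higher. Elf5, an ETS factor of epithelia, read 159 in the control against 441 in the null, 2.77-fold higher (1.47). Snai2 encodes Slug, a repressor that binds E-boxes of junction genes. It read 23.3 and 114 by 1447643_x_at, 4.89-fold higher (2.29), but its other probe set, at 18.9 and 14.1, was below the floor on both arrays. Leaving out probe sets of shared sequence lowered the floor to 16.04, so that this other probe set counted as read in the control alone, with a bound of -0.23 for Snai2. Twist2, a mesenchymal factor named after its value was seen, read 21.2 and 43.1, from just above the floor (1.02).

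Esrp2, a splicing regulator of epithelia, read 492 and 235, 2.10-fold lower (-1.07), with another probe set at a bound of -0.49. Gata6, a zinc finger factor, read 78.7 and 36.5, 2.15-fold lower (-1.11), with another probe set at a bound of -0.09. Snai2 and Twist2 are typically made in stroma, where 11 of 12 markers had differences above 0, against 6651 of all 11662 measured genes. The stroma median was 0.54. Past 2-fold was 1 of the 12 (8.33%, against 7.73% of all measured genes), Col6a3 at 1.58. Col1a2 stood at 0.86 by its brightest probe set and at 1.30 by another. The part of stroma in the Snai2 and Twist2 values was not tested.

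**Figure D4:**
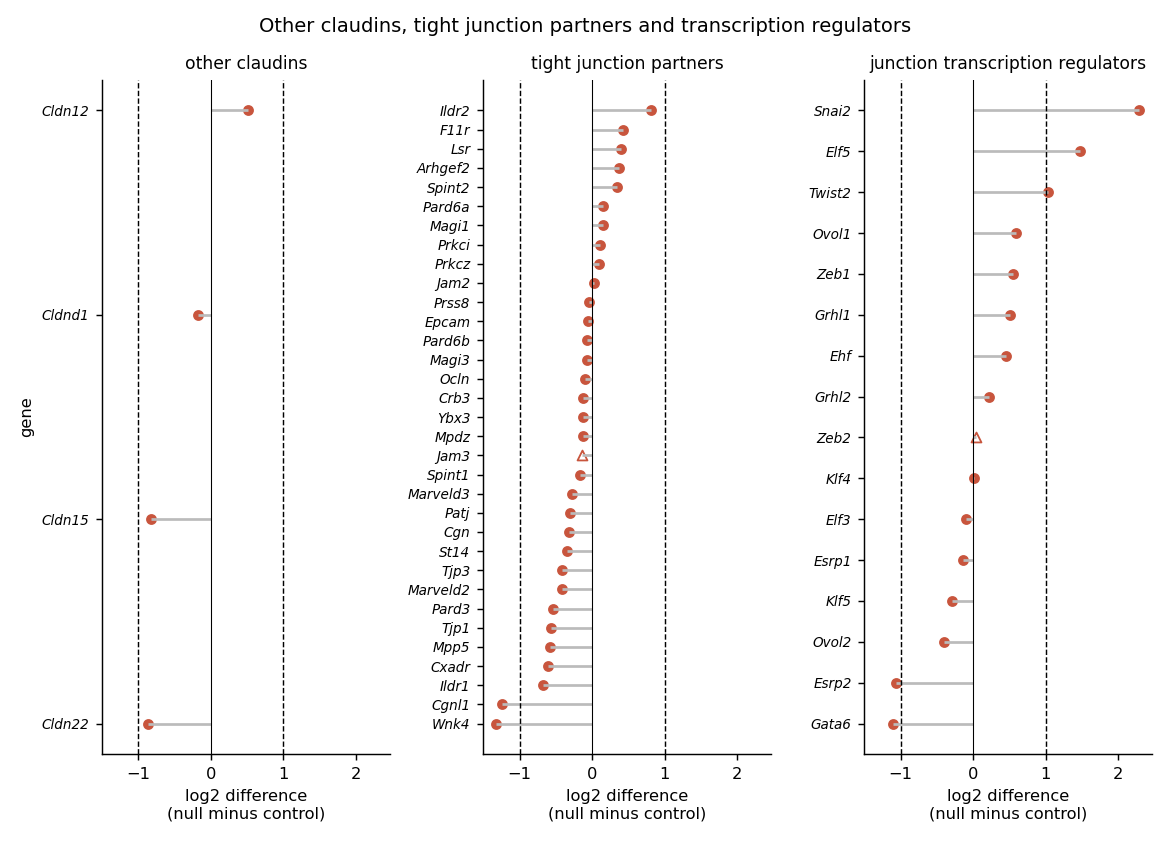
Log2 difference (null minus control) of the measured genes among other claudins, tight junction partners and transcription regulators of junction genes; open triangles are bounds against the floor and dashed lines mark 2-fold. Most of the 33 partners lie between the dashed lines, with Wnk4 at -1.32 and Cgnl1 at -1.24 outside them.

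The size of the Cldn1 difference depended little on the settings. Over 10 alternatives it ran from 3.24 to 3.93, and in each of them every other claudin that was read had a smaller difference. Cldn5 ran from 0.42 to 0.81, Cldn10 from 0.41 to 0.80, Cldn23 from 0.05 to 0.43, Cldn7 from -0.48 to -0.09 and Cldn8 from -1.02 to -0.40. No alternative brought Cldn5 or Cldn10 to 2-fold. The spike-in scaling moved the median difference of all genes by -0.28, and with it 35.4% of the genes past 2-fold were higher in place of 62.0%.

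**Figure D5:**
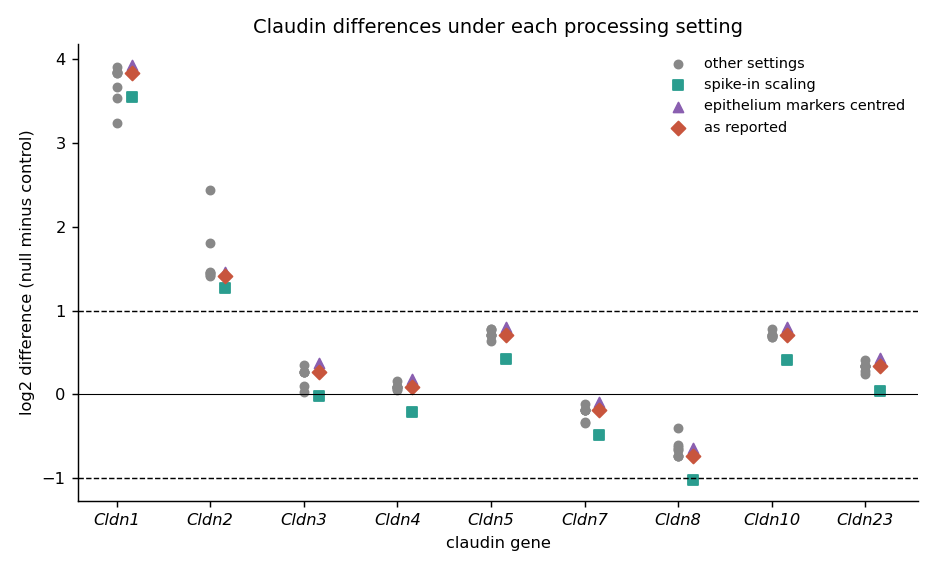
Log2 difference (null minus control) of each measured claudin as reported (red diamonds), with spike-in scaling (green squares), with the epithelium markers centred (purple triangles) and in the other settings (grey circles); dashed lines mark 2-fold. Cldn1 stays between 3.24 and 3.93, whereas Cldn3 and Cldn4 lie on either side of 0.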

How the data were processed

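The deposited values are linear signal intensities per probe set; the submitters' processing notes name MAS5 and Affymetrix Expression Console (version 1), and 100 ng of total RNA was amplified, per the labels' protocols. Each array's trimmed mean (2% from either end) was 150.001, so a difference in total RNA per cell is not visible. No detection calls were used. Of the probe sets, 34945 name 1 gene; those naming several were left unnamed. The ratio of 3' to 5' signal was 1.62 and 1.56 for Actb on the control and null arrays.

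Signals below the floor were set to it before log2, and the null minus control difference was taken (Python 3.11.15, pandas 2.3.3, statsmodels 0.14.6). A fold against a signal below the floor is given as "at least". No test was possible, and precision is limited, with 1 array per genotype. The fold calls were tested on simulated data. The calls made on these arrays, those near the floor included, were not tested. All 10 claudins were named. From the lists of other claudins, partners, regulators and endothelium markers, up to 4 genes with the largest difference read on both arrays were named. Further genes of these lists are said to be chosen after their values were seen, except Epcam and Sox17, which lack that remark. Genes of the other marker lists were named without a fixed rule. The members and lists were chosen with earlier results of these data known. Alternatives were 2 other floors, a pseudocount of 16 without a floor, scaling by array medians, quantiles, loess (span 0.3) or spike-in controls, the median over probe sets, leaving out probe sets whose ID ends in _s_at, _x_at or _a_at, and thresholds of 1.5-fold and 3-fold. Centring on the epithelium markers was added after the data were seen. Promoter windows are RefSeq's, GRCm38.p6.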

Additional observations from a re-analysis of the deposited data

How the results depend on the processing

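With 1 array per genotype no paired analysis was possible because the groups share only 1 replicate number, and no array could be left out. Single results could be read under 9 or 10 alternatives each. Higher and lower below count genes past the fold threshold. Without _s_at, _x_at and _a_at probe sets the floor fell from 21.1 to 16.04; Cldn1 stood at 3.24 and the Cldn2 bound at 1.81, Snai2 turned to a bound of -0.23 by a probe set unread on both arrays at the reported floor, and Cldn3, Cldn10 and Tjp1 gave no value. With the 33rd percentile floor Cldn2 stood at 2.44. With spike-in scaling 1 claudin gene and 1 claudin probe set were lower, 2 further claudins were lower, and 572 genes of all were higher and 1044 lower. With the 67th percentile floor 1 claudin was higher, 1 regulator was higher and 1 lower, and 495 genes of all were higher and 365 lower; Snai2 then stood at a bound of 0.65 and Gata6 at -0.11, and Cldn2, Cldn22, Msx2 and Twist2 gave no value. At 1.5-fold 4 claudin genes and 5 claudin probe sets were higher and 1 of each lower, 1 partner was higher and 4 were lower, 2 further claudins were lower, and 2040 genes of all were higher and 1405 lower. At 3-fold 1 claudin was higher, 0 partners were lower, 1 regulator was higher and 0 lower, and 346 genes of all were higher and 176 lower. With the median over probe sets 1 partner and 0 regulators were lower. With the pseudocount, array medians, loess or centred epithelium markers 1 regulator was lower. For thresholds, floors and omitted probe sets the alternative itself changes what is counted; otherwise the cause was not tested. Signals near the floor, as for Cldn2, Cldn6 and Snai2, limit what can be read.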

Other observations

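The genes next to each claudin on its chromosome were read as well, taking the 5 nearest protein-coding genes on each side in RefSeq order, a choice made after the claudin values were seen. Of 56 distinct neighbours measured, 2 passed 2-fold upwards in the null and 1 downwards, against 7.73% and 4.75% of all genes. Around Cldn1, none of 4 measured neighbours reached 2-fold. P3h2, which encodes a collagen prolyl hydroxylase, stood at -0.18 (202 in the control and 178 in the null), Lpp at -0.30, the repressor gene Bcl6 at -0.25 and Il1rap, a co-receptor for interleukin 1 unread in the control, at a bound of 0.48. Cldn16, the nearest gene on the other side, was below the floor on both arrays.

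Around Cldn2, 3 neighbours were measured and lay between -0.28 and -0.03, among them the ubiquitin ligase gene Rnf128 at -0.28 (7784 and 6422). The 9 measured neighbours of Cldn4, Cldn3 included, ran from a bound of -0.67 (Tmem270) to a bound of 0.71 (Limk1). Those past 2-fold were Abcc4, an exporter of cyclic nucleotides and prostaglandins next to Cldn10, at 1.02 (1003 and 2029); Tnfrsf12a, the receptor of the cytokine TWEAK next to Cldn6, at 1.16 (51.4 and 115); and Ppp1r3b, a glycogen-targeting phosphatase subunit near Cldn23, at -2.57 (153 and 25.6).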
